A study of Homo sapiens with 24 samples.

Results

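MV411 is an acute myeloid leukaemia cell line that carries an MLL (KMT2A) fusion gene together with a FLT3 gene, encoding a receptor kinase, altered by internal tandem duplication. The data described here compare MV411 cells that received MI-503 and AC220 together with MV411 cells that received DMSO, the drug solvent. The combination was 2.5 µM MI-503 for 3 days and 3 nM AC220 for 24 h, and how long DMSO was given is not stated for this line. Each group had 3 libraries, so 6 of the 24 libraries of the series enter the comparison, and 6 more MV411 libraries, with either drug alone at the same dose and time, are set beside them. All genes with a normalised read count of at least 10 in at least 3 of the 12 MV411 libraries were taken, which gave 14421 of the 25680 genes of the table. The third-highest value of the 12 was 10.02 for APLN and FBXL2, just inside this limit, and 9.95 for TMEM27 and ZNF843, just outside it. The triplicates are called biological, but how the cultures were kept apart is not described, so the p-values measure the spread between these libraries.

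MLL fusion proteins need the adaptor protein menin, product of MEN1, to occupy genes such as MEIS1 and the HOXA cluster, whose products keep leukaemic cells in an immature, self-renewing state. MI-503 is a small molecule that occupies the site on menin to which MLL binds. FLT3 with an internal tandem duplication signals without its ligand through STAT5 and through the RAS, MEK and ERK kinases, and AC220 (quizartinib) inhibits the FLT3 kinase. The study's title names the joint inhibition of both as its question.

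The 6 libraries held 23168887 to 26554728 reads assigned to genes. Values are normalised read counts, and the factors that set their scale equalled median-of-ratios factors computed from the genes themselves, although the column names carry the name of the ERCC spike-in RNA. A rise or fall below is therefore relative to the other genes, and the total RNA per cell was not measured. In bulk RNA such as this, fewer cells of a kind and less RNA per cell cannot be told apart. The 10 genes with the most reads took 4.52 to 4.72% of reads with DMSO and 6.13 to 6.46% with the combination. The myeloid identity of the line could be seen in its markers: all 8 of PTPRC, CD33, ANPEP, SPI1, ITGB2, LYZ, MPO and CSF2RB passed the limit. Among markers of other lineages, HBA1, HBA2, HBB, CD3E, CD3G, MS4A1, EPCAM, COL1A2 and COL3A1 had 0 or 1 read over the 3 DMSO libraries. Other members of the same lists, such as ITGA2B and NKG7, were well expressed with DMSO and are given with the summed levels of their lists.

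Of the 14421 genes, 5672 were higher and 5778 lower with the combination than with DMSO at an adjusted p under 0.05, by limma with Benjamini-Hochberg adjustment over all genes. These are 39.3% and 40.1% of the genes tested, and they are the background against which every count against DMSO has to be read. A change of at least 2-fold was met by 1804 genes that rose and 1937 that fell, and one of at least 8-fold by 95 and 219. The median log2 fold change of all genes was 0.0031. A gene near 0 in one group enters the table only through the groups where it is high, so counts over such genes lean toward a difference. Log2 fold changes here are on the log2(value + 1) scale, which understates the change of genes with few reads.

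**Figure D1:**
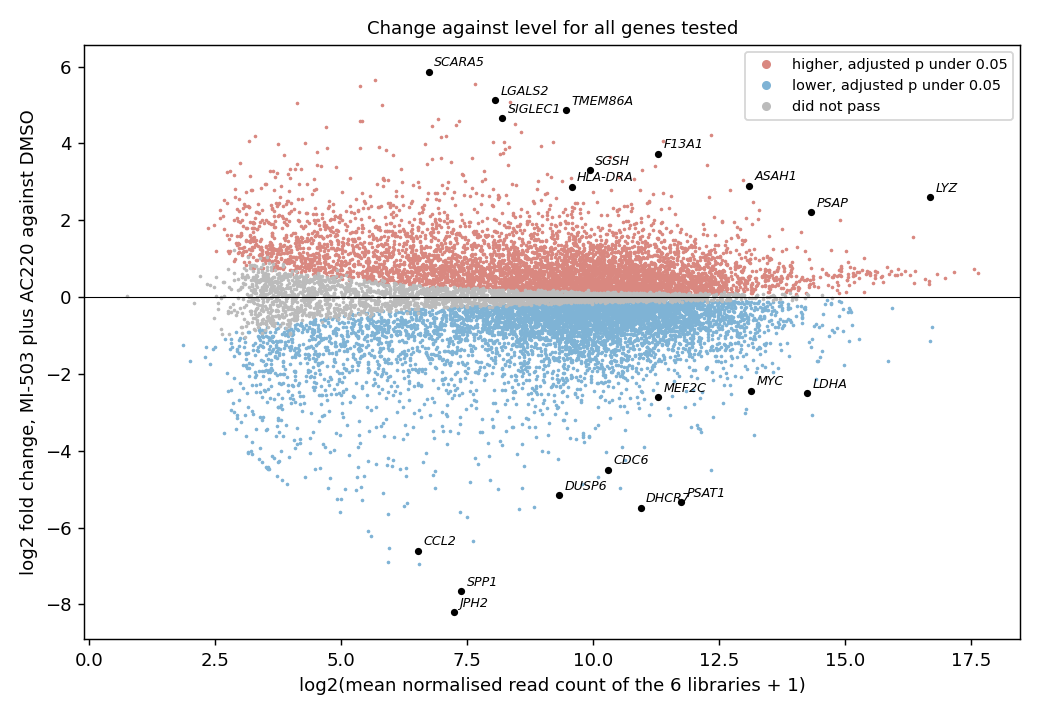
Each point is 1 of the 14421 genes; the horizontal axis is the log2 of the mean normalised read count of the 6 libraries plus 1 and the vertical axis the log2 fold change of the combination against DMSO. Red points passed the test upward (5672), blue points downward (5778) and grey points did not pass, and the genes at the lower edge, such as JPH2 and SPP1, lie farther from 0 than those at the upper edge, such as SCARA5.

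The 12 largest falls among genes with a group mean of at least 100 included secreted proteins, a chemokine, a transporter and enzymes. Only genes with the libraries of one group wholly apart from those of the other could be chosen. That these genes were apart is therefore no added result. SPP1 (osteopontin, a secreted phosphoprotein, chr4:87975714-87983411 on GRCh38.p14, as for all gene positions given) had normalised read counts of 392.1, 225 and 377 with DMSO and 0, 1.02 and 1.03 with the combination, which is a ratio of 473 with a 95% counting interval of 131 to 3914. CCL2, a chemokine that attracts monocytes, had 156, 204 and 186 against 2.26, 0 and 1.03, a ratio of 172 with a 95% counting interval of 58.5 to 836. In both genes every combination library was under every DMSO library by a wide margin, and the interval, which covers counting error only, is wide because 2 and 3 reads are all that the combination group held. No read at all was found in the combination for JPH2, a protein that ties the cell membrane to the endoplasmic reticulum in muscle, and for OCSTAMP, a protein of osteoclast fusion. JPH2 had 916 reads over the 3 DMSO libraries and OCSTAMP had 366, so against a floor of 3 reads over the group they were at least 283-fold and at least 113-fold lower.

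The remaining large falls were of several kinds. RGS16, a regulator of G-protein signalling (chr1:182598623-182604389), went from 769.9, 633 and 763 to 11.3, 18.3 and 15.4. STC2, a secreted glycoprotein (stanniocalcin), went from 142, 104 and 109 to 1.13, 2.03 and 1.03, a ratio of 84.5 with a 95% counting interval of 32.7 to 312. SLCO4C1, an organic anion transporter, went from 413, 331 and 406 to 5.64, 2.03 and 4.10. That these groups of libraries were apart was a condition of the choice. KLHDC7B went from 161, 90.3 and 110.4 to 1.13, 0 and 0 and the aldo-keto reductase gene AKR1C2 from 206, 139.5 and 209 to 2.26, 0 and 0, although reads of AKR1C2 are hard to tell from those of its near-identical neighbour AKR1C1. SEPT5 and the readthrough gene SEPT5-GP1BB overlap, so their falls (-5.61 and -5.74 in log2) may count many of the same reads. The twelfth gene by size was DHCR7 of cholesterol synthesis, given below with its pathway.

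The 12 largest rises by the same rule included a scavenger receptor, a lectin and a Toll-like receptor. SCARA5, a scavenger receptor that binds ferritin, had 2.85, 2.01 and 2.93 with DMSO and 187, 206 and 232 with the combination, a ratio of 80.2 with a 95% counting interval of 40.4 to 187. LGALS2 (galectin-2, a sugar-binding protein, chr22:37570248-37580087) rose 36.9-fold, from 14.3, 16.1 and 11.7 to 540.2, 515 and 499 (log2 fold change 5.12 ± 0.13 (SE), limma adjusted p = 1.17e-20). TMEM86A, an enzyme of ether lipid breakdown (chr11:18698779-18704785), rose 28.7-fold, from 47.6, 62.2 and 33.2 to 1403, 1381 and 1321. With DMSO SCARA5 lay under the limit of 10 and entered the table through the treated libraries, and the other 2 genes lay above it. That the libraries of these genes did not overlap between the groups was a condition of the choice. GFRA2, a receptor for neurturin, went from 20.9, 19.1 and 13.7 to 714, 599 and 584. IGSF22 went from 7.61, 13.1 and 3.91 to 391, 394 and 387. GUCY1A2, a subunit of the nitric oxide receptor guanylate cyclase, went from 2.85, 1.00 and 3.91 to 99.2, 106 and 116. Like SCARA5, it lay under the limit of 10 with DMSO and entered the table through treated libraries. The same order of change was seen for CARD14 (log2 fold change 4.62), GPR141 (4.58), FAM198B (4.50), ROBO1 (4.46), and the macrophage genes SIGLEC1 (4.66) and TLR8 (4.48).

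**Figure D2:**
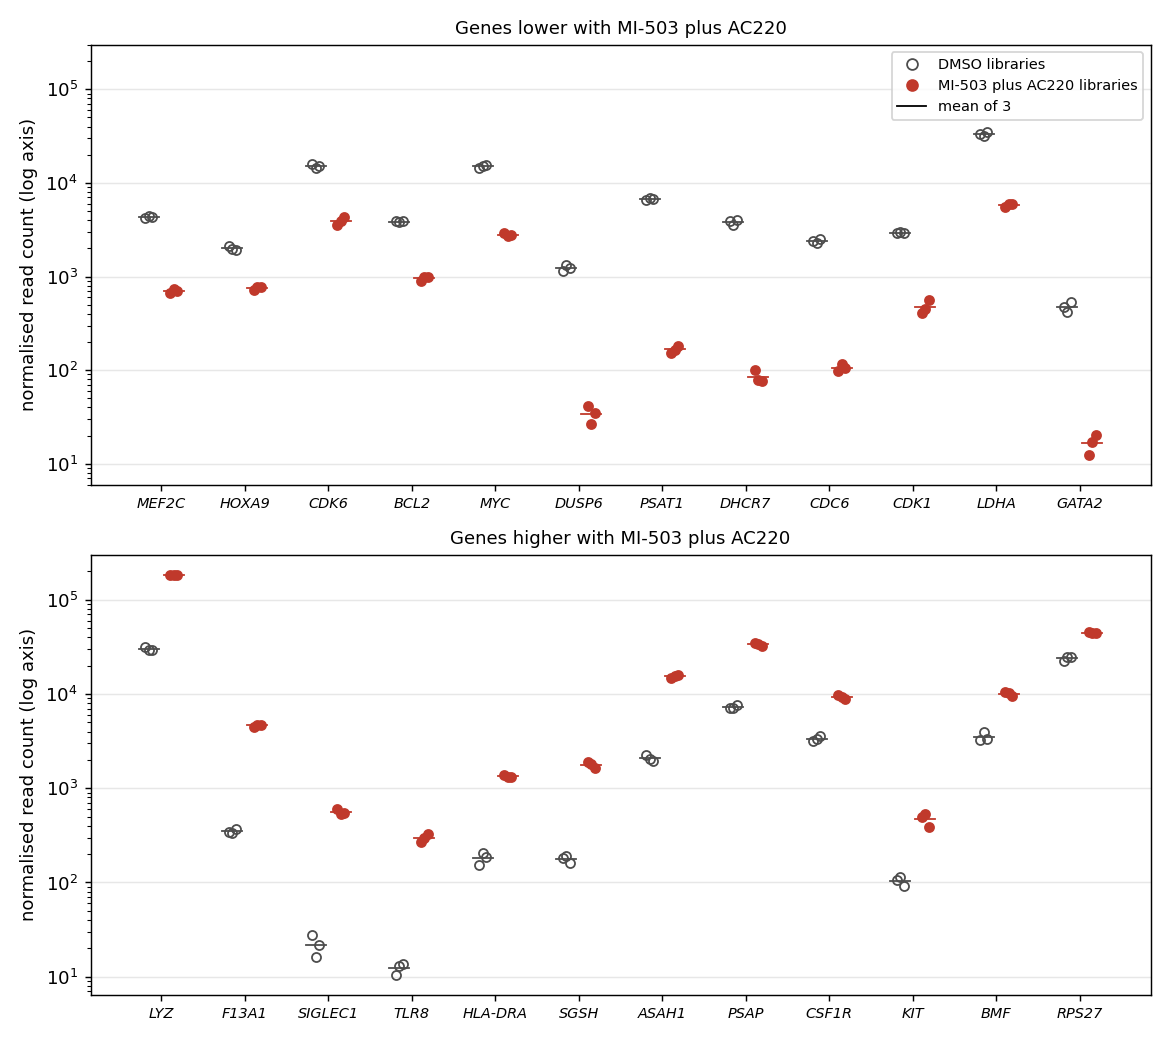
Each point is the normalised read count of 1 library (vertical log axis) for a gene named on the horizontal axis, open grey for the 3 DMSO libraries and red for the 3 combination libraries, with a line at the mean of 3. In all 24 genes the points of the groups do not overlap, which holds for 79.3% of all genes tested. The spread within a group is small beside the distance between groups, for LYZ 29057 to 31405 against 181590 to 183690.

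Genes bound by MLL fusion proteins were lower in most cases, but not all. Of 24 such genes outside the HOX clusters 21 were tested, of which 13 fell and 7 rose, with a median log2 fold change of -0.66. MEIS1, the homeobox partner of HOXA9 (chr2:66435125-66573869), had 2312, 2225 and 2255 with DMSO and 690.2, 808 and 679 with the combination (log2 fold change -1.64 ± 0.058 (SE), limma adjusted p = 6.42e-18). MEF2C, a transcription factor of myeloid and lymphoid progenitors (chr5:88717117-88904105), had 4199, 4418 and 4311 and 672, 742 and 699 (log2 fold change -2.61 ± 0.057 (SE), limma adjusted p = 1.56e-21), the largest fall of this list. For either gene the highest combination library lay far under the lowest DMSO library. PBX3, a further homeobox partner, went from 2457, 2468 and 2647 to 1052, 1026 and 1023, CDK6, a kinase of the G1 phase, from 16061, 14599 and 15117 to 3540.1, 3941 and 4278, and BCL2, which protects cells from apoptosis, from 3893, 3793 and 3888 to 900.0, 999 and 993. MYB, a transcription factor of immature blood cells, fell less, by 0.75 in log2, from 17624, 17050.0 and 18071 to 10010.3, 10684 and 10734. All 6 fell beyond the spread between libraries and without overlap, where 40.1% of all genes tested were apart downward.

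The 7 members that rose were SKIDA1, ARID1B, CCNA1, LAMP5, RUNX2, ZEB2 and RNF220. SKIDA1 had few reads, 1.90, 8.03 and 6.84 against 13.5, 23.4 and 14.4. Its DMSO values all lay under the limit of 10, so SKIDA1 entered the table through treated libraries only. ARID1B, a subunit of a chromatin remodelling complex, went from 1805, 1682 and 1841 to 2607, 2622 and 2618. CCNA1, a cyclin of germ cells and leukaemias, rose by 0.31 and LAMP5, a lysosome-associated membrane protein, by 0.30 in log2. TAPT1 did not pass, at 0.10 (limma adjusted p = 0.288). EYA1, ZNF521 and HMGA2 lay under the limit of the table.

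Of 11 genes of the HOXA cluster 3 were tested, of which 2 fell and 1 did not pass. HOXA9 went from 2146, 1956 and 1940.3 to 723, 775 and 770.5 (log2 fold change -1.41 ± 0.06 (SE), limma adjusted p = 2.31e-16) and HOXA10 from 1349, 1317 and 1335 to 542, 593 and 562 (log2 fold change -1.24). The libraries of these 2 genes were apart, as were 40.1% of all genes downward. Their transcripts overlap on chromosome 7, so some reads may belong to either. The other 8 genes had at most 12 reads over the DMSO libraries and were not tested. MEN1, the gene of menin, fell from 1249, 1149 and 1249 to 951, 978 and 880.3. KMT2A, the gene of MLL, had 6077, 6084 and 5859.9 against 5693, 5930 and 5780.2 and did not pass (limma adjusted p = 0.241). NPM1 differed by -0.081 in log2 at a limma adjusted p of 0.0441, a call that edgeR, TMM factors and several other settings did not make.

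The levels of these genes with either drug alone were also measured. The comparisons share libraries, so the values are set side by side without a test of their likeness. Normalised read counts of MEIS1 were 461, 449 and 456 with MI-503 and 2853, 2895 and 2964 with AC220, and those of MEF2C 673, 617 and 559.8 and 4884, 4795 and 4577. For MEIS1 the combination lay between the drugs, 0.67 in log2 above MI-503 (limma adjusted p = 3.63e-10) and -2.003 from AC220 (limma adjusted p = 2.1e-18). HOXA9 was also higher than with MI-503, by 0.47, and PBX3 by 0.52. CDK6 and BCL2, by contrast, were lower with the combination than with MI-503, by -0.98 and -0.92 in log2, and than with AC220, by -1.86 and -2.09. Over the 21 genes, 14 were higher and 5 lower than with MI-503, where 34.9% and 33.6% of all genes tested were called higher and lower. Against AC220, 1 was higher and 17 lower, where 27.4% and 28.1% of all genes were. Each later count against a single drug has to be read against these shares.

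Genes that report ERK activity fell steeply. Of 20, 16 were tested, 12 fell and none rose, and the median log2 fold change was -2.85 beside 0.0031 for all genes. DUSP6, the phosphatase that switches off ERK (chr12:89347235-89352501), had 1149.6, 1335 and 1235 with DMSO and 41.7, 26.4 and 34.9 with the combination (log2 fold change -5.15 ± 0.14 (SE), limma adjusted p = 4.56e-20), a 36.1-fold lower mean. ETV5, an ETS transcription factor (chr3:186046314-186109089), went from 1716, 1879.9 and 1776 to 155, 138 and 145. ETV4, its relative, went from 230.3, 218 and 226 to 5.64, 8.14 and 5.13. None of these groups of libraries came near each other. SPRY2, a feedback inhibitor of receptor kinases, went from 75.2, 68.2 and 82.1 to 3.38, 4.07 and 1.03 and the early gene EGR3 from 79.9, 34.1 and 40.1 to 1.13, 0 and 2.05, a ratio of 49.1 with a 95% counting interval of 16.5 to 241. SPRED3, EGR2, FOS and IER2 did not pass, with log2 fold changes of 0.29, 0.57, 0.094 and 0.10. The list's median was -1.44 with MI-503 alone and -2.56 with AC220 alone. DUSP6 had 258, 211 and 250.2 with MI-503 and 34.5, 31.8 and 28.1 with AC220, and its combination level did not pass against AC220 (difference 0.10, limma adjusted p = 0.551). ETV5 was 0.35 above AC220 in log2.

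STAT5 targets fell in 12 of 14 cases and rose in 1, with a median of -0.94. PIM1, a survival kinase (chr6:37170152-37175428), had 3348, 3569 and 3901 with DMSO and 1477, 1389.7 and 1310.1 with the combination (log2 fold change -1.37 ± 0.056 (SE), limma adjusted p = 1.18e-16). With AC220 alone its values were 542, 541 and 562, and with MI-503 alone 2325, 2249.6 and 2216. The combination therefore lay between DMSO and AC220, above AC220 at a limma adjusted p of 1.84e-15. SOCS2 fell by 1.01 and CISH by 0.88 in log2, both feedback inhibitors of cytokine signalling. SOCS1, of the same family, went from 43.8, 43.2 and 42.0 to 18.04, 11.2 and 10.3. ID1, an inhibitor of basic helix-loop-helix factors, went from 20.9, 24.1 and 20.5 to 5.64, 3.05 and 3.08, and the cyclin CCND2 from 1386, 1474 and 1435 to 508, 512 and 503. BCL6, a transcriptional repressor, was the member that rose, from 96.1, 93.3 and 84.0 to 398, 398 and 349 (log2 fold change 2.05 ± 0.099 (SE), limma adjusted p = 2.89e-15), and it stood above MI-503 by 1.04 and above AC220 by 0.73. BCL2L1 (BCL-XL) did not pass, at 0.063. Against AC220 alone, 7 of the 14 were higher and 3 lower, beside 27.4% and 28.1% of all genes.

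Receptors of growth factors and cytokines moved the other way in 8 of 10 tested. CSF1R, the receptor of the macrophage growth factor (chr5:150053295-150113365), had 3163, 3357 and 3594 with DMSO and 9714, 9403 and 8874 with the combination (log2 fold change 1.47 ± 0.046 (SE), limma adjusted p = 9.35e-19). CSF3R, the receptor of the granulocyte growth factor, went from 3669, 4089 and 3783 to 15623, 14291 and 13554, and IL10RA from 944, 931 and 892 to 3357, 3116 and 3031. These 3 receptors were above both single drugs as well, CSF3R by 0.67 against MI-503 and 0.89 against AC220. KIT, the stem cell factor receptor, had 107, 113 and 91.8 in DMSO, 499.6, 539 and 391.9 in the combination, 119, 129 and 109 under MI-503 and 649.7, 674 and 611 under AC220. Its combination libraries were all above DMSO and MI-503 and below AC220, the last difference being -0.45 (limma adjusted p = 0.00125). FLT3 itself fell slightly, from 16486, 16722 and 17851 to 13157, 14271 and 14125 (log2 fold change -0.30 ± 0.04 (SE), limma adjusted p = 3.72e-07), between 9306, 9580.0 and 9335 with MI-503 and 28812, 29640.0 and 29909 with AC220. IL1RAP, the co-receptor of interleukin 1, fell from 5672, 4952 and 5563 to 1195, 1348 and 1315. CSF2RA and IL3RA were listed at 0 reads in all 6 libraries. The counting program is not given, so a listed 0 does not show that these genes were not expressed.

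Cell cycle genes fell as whole groups. All 29 DNA replication genes and all 28 mitosis genes passed downward against DMSO, with medians of -2.20 and -1.84 in log2. MCM10, which loads the replication polymerase (chr10:13161558-13211110), had 1756, 1623 and 1745 with DMSO and 46.2, 66.1 and 63.6 with the combination (log2 fold change -4.86 ± 0.13 (SE), limma adjusted p = 1.03e-19). CDC6, which licenses replication origins, had 2418, 2304 and 2500.1 and 97.0, 116 and 105 (log2 fold change -4.50 ± 0.097 (SE), limma adjusted p = 1.03e-21). CDC45, of the replicative helicase, had 1228, 1174 and 1210.5 and 56.4, 60.0 and 74.9, and GINS2, of the same complex, 923, 914 and 1002 and 59.8, 64.1 and 50.3. For each of the 4 the combination libraries lay more than 8-fold under every DMSO library. Among mitosis genes, CDK1, the kinase that drives entry into mitosis (chr10:60778331-60794852), had 2884, 2959 and 2889 with DMSO and 405, 449.7 and 566 with the combination (log2 fold change -2.63 ± 0.082 (SE), limma adjusted p = 8.72e-19). KIF11, a spindle motor, went from 3952, 3866 and 3898 to 653, 771 and 782. CCNA2, a cyclin of S and G2 phases, went from 3322, 3105 and 3159.6 to 583, 679 and 679, and NDC80, of the kinetochore, from 1681, 1878 and 1872 to 342, 396 and 413. The groups were apart in every one of the 57 genes, beside 40.1% of all genes apart downward and 40.1% called lower.

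With MI-503 alone the medians of these lists lay near 0, and with AC220 alone they lay far below it. Median log2 fold changes for DNA replication were -0.23 with MI-503, -2.33 with AC220 and -2.20 with both, and for mitosis -0.059, -2.91 and -1.84. CDK1 values were 2278, 2371 and 2237 with MI-503 and 316, 306 and 357 with AC220. All 57 genes were lower with the combination than with MI-503. Against AC220, 26 of the 28 mitosis genes were higher with the combination and none lower, with a median difference of 1.04. PRC1 and ANLN did not pass this comparison. NDC80 stood at 156, 139 and 206 with AC220, below its combination values in every library, and CCNA2 at 326, 278 and 369, likewise below. DNA replication genes split, with 16 of 29 higher than with AC220 and 7 lower. CDC45 was 0.91 above AC220 in log2, while HELLS, a chromatin remodeller of dividing cells, was -0.52 from it. AC220 was present for 24 h in both groups and MI-503 for 3 days in one.

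To show the promoters of the genes that fell and rose as groups, sequences of 300 bases around annotated start sites (250 before to 50 after) were taken from RefSeq on GRCh38.p14. An E2F site was searched as TTTCCCGC, TTTCGCGC, TTTGCCGC or TTTGGCGC, the cell cycle homology region as TTTGAA, and the NF-Y box as CCAAT, on both strands. E2F letters were in 16 of 26 promoters of the DNA replication list (61.5%) and in 2 of 24 of the mitosis list (8.33%), beside 3.33% of all 27305 promoters and 5.29% of the 10152 promoters of tested genes. TTTGAA was in 17 of 24 mitosis promoters (70.8%) and in 0 of 26 replication promoters, beside 15.4% of all and 10.1% of tested genes' promoters. CCAAT was in 18 of 24 mitosis promoters (75%) and in 11 of 12 promoters of the MHC class II list (91.7%), beside 35.7% of all and 36.4% of tested genes'. A match is a description of the letters and no evidence of binding. For the cholesterol and lysosome lists such a count was void, since only 18 of 25 and 24 of 34 genes had a promoter in the table. One promoter is shown for each of the 3 lists, on the plus strand with every match to the 3 motifs in capitals: for CDC6 an E2F match 7 bases after the start and CCAAT matches 126, 103 and 50 bases before it, the first and second on the minus strand (chr17:40287629-40287928), for CDK1 a TTTGAA match 161 bases before it, a CCAAT match 150 bases before it and an E2F match 19 bases after it (chr10:60778081-60778380), and for HLA-DQA1 a CCAAT match on each strand, 222 and 68 bases before the start (chr6:32637156-32637455). No match overlapped another.
CDC6: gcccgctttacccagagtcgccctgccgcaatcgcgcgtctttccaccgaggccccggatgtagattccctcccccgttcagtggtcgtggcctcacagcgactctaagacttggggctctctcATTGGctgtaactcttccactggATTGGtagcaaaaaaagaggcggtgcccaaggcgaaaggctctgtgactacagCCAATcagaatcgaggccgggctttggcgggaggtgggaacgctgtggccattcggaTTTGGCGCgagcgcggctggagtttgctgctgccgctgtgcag
CDK1: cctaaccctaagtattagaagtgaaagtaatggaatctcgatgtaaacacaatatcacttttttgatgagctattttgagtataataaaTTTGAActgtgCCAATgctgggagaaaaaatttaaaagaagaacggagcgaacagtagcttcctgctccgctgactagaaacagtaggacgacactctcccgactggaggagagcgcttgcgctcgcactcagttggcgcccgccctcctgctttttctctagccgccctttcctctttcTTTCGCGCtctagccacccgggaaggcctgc
HLA-DQA1: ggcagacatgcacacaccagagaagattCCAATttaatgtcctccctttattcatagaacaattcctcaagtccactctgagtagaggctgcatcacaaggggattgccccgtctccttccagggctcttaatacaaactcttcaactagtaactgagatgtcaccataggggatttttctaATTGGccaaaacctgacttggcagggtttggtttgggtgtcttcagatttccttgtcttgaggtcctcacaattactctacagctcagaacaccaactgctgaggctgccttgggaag

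Genes of the G1 phase fell in 15 of 16 cases, with a median of -2.02. E2F1, the transcription factor that opens S phase (chr20:33675477-33686385), went from 1259, 1189 and 1239 to 136, 125 and 141 (log2 fold change -3.19 ± 0.088 (SE), limma adjusted p = 9.05e-20). E2F2 went from 466, 462 and 479 to 44.0, 41.7 and 47.2, E2F7, a repressive member of the family, from 759, 733 and 821 to 62.0, 83.4 and 75.9, and the cyclin gene CCNE2 from 1082, 972 and 992 to 84.6, 124 and 104. RBL2 (p130), a pocket protein of resting cells, was the one that rose, from 3891, 4134 and 3959.7 to 5535, 5877 and 5973. E2F2 had 14.4, 9.95 and 20.6 with AC220 alone and was 1.56 higher with the combination, whereas E2F7 had 201, 180.1 and 192 and was lower by 1.37, given as log2 differences with limma adjusted p = 1.58e-08 and 2.56e-11.

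Inhibitors of cyclin-dependent kinases did not rise as a group: 2 of 7 rose and 5 fell, beside 39.3% and 40.1% of all genes. CDKN1C (p57) rose from 58.0, 45.2 and 54.7 to 222, 217 and 189.8 and CDKN2D (p19) from 610, 551 and 557 to 793, 749.8 and 760.2. CDKN1A (p21, chr6:36676463-36687332) fell from 5794, 5774 and 6213 to 2082, 2037 and 1938 (log2 fold change -1.55 ± 0.05 (SE), limma adjusted p = 1.58e-18). CDKN1B (p27) fell from 2802, 2692 and 2479.6 to 1578, 1621 and 1750.3, CDKN2C (p18) from 964, 963 and 971 to 451, 414 and 446, CDKN2B (p15) by 0.89 and CDKN2A by 0.31 in log2. CDKN1A was under both single drugs, by 0.74 under MI-503 and 0.46 under AC220.

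MYC and the genes that build ribosomes fell in all 29 cases, with a median of -1.14, and 20 of them by at least 2-fold. MYC, the transcription factor that drives growth, had 14591, 15249 and 15647 with DMSO and 2888, 2726 and 2774 with the combination (log2 fold change -2.44 ± 0.042 (SE), limma adjusted p = 2e-23). Its values were 8573, 7969.5 and 8234 with MI-503 alone and 5894, 5652 and 5500.4 with AC220 alone. The combination was thus the lowest of the 4 groups, 1.56 under MI-503 (limma adjusted p = 2.38e-19) and 1.02 under AC220 (limma adjusted p = 1.32e-15) in log2. MRTO4, which matures the large ribosomal subunit, went from 2702, 2619.7 and 2921 to 760.1, 799.6 and 722. GAR1, of the RNA-modifying snoRNPs, went from 835, 883 and 748 to 203, 241 and 262, and NOP16, a nucleolar protein, from 1997, 1961 and 2095 to 651, 653 and 539. All 29 were lower than with MI-503, and 22 were lower and 1 higher than with AC220.

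The ribosomal proteins themselves went the other way. All 73 tested of 75 rose, by 0.19 to 0.90 in log2 with a median of 0.55, and the direction of all 73 was the same under each scaling tried. Their summed normalised read count was 2079490 to 2228240 in the DMSO libraries and 3059410 to 3273000 in the combination libraries. RPS27 (chr1:153990762-153992155) went from 22609, 24615 and 24503 to 45201, 44435 and 44205 (log2 fold change 0.90 ± 0.043 (SE), limma adjusted p = 2.28e-15), RPL28 from 21746, 22704 and 22952 to 43758, 38156 and 35934, and RPL31 from 21772, 23459 and 23638 to 39168, 39304 and 37755. No gene of the list rose by as much as 2-fold. Many ribosomal protein genes have near-identical pseudogenes, so their counts are uncertain. The medians were 0.42 with MI-503 and 0.28 with AC220, and 43 of 73 were higher than with MI-503 and 71 higher than with AC220. RPS18 had 1 and 0 reads in the 2 groups, under the limit, although every cell makes this protein, so a listed value near 0 does not show that it was not expressed.

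Enzymes that make nucleotides and folate intermediates fell in 21 of 23 cases, with a median of -1.22. RRM2, the regulated subunit of ribonucleotide reductase (chr2:10122568-10211010), went from 7252, 6841 and 7405 to 627, 694 and 732 (log2 fold change -3.39 ± 0.075 (SE), limma adjusted p = 1.8e-21). TYMS, which makes thymidylate, went from 5334, 5197 and 5327 to 566, 622 and 718. PAICS, of purine synthesis, went from 10649, 10385 and 10892 to 1498, 1595 and 1595, and TK1, a thymidine kinase of S phase, from 1931, 1877 and 1946 to 291, 236 and 262. PAICS was also under AC220 alone, by 1.18 in log2, whereas RRM2 was 0.64 and TK1 1.08 above it. IMPDH2, of guanine nucleotide synthesis, rose by 0.22. ADSL did not pass, at -0.084.

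Chaperones fell in 11 of 12 tested cases, with a median of -1.19. HSPE1 and HSPD1, the mitochondrial chaperonin pair, went from 3038, 2883 and 3169 to 652, 609 and 675 and from 20775, 19550.2 and 20864 to 5324, 5689.9 and 5926. HSP90AA1 went from 50688, 47432 and 51285 to 14123, 14941 and 15021 (log2 fold change -1.76 ± 0.042 (SE), limma adjusted p = 6.07e-21), and HSPA8, the constitutive HSP70, from 33711, 32162 and 36797 to 10668, 11012 and 10449. BAG3, a co-chaperone, was the member that rose, by 0.28.

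**Figure D3:**
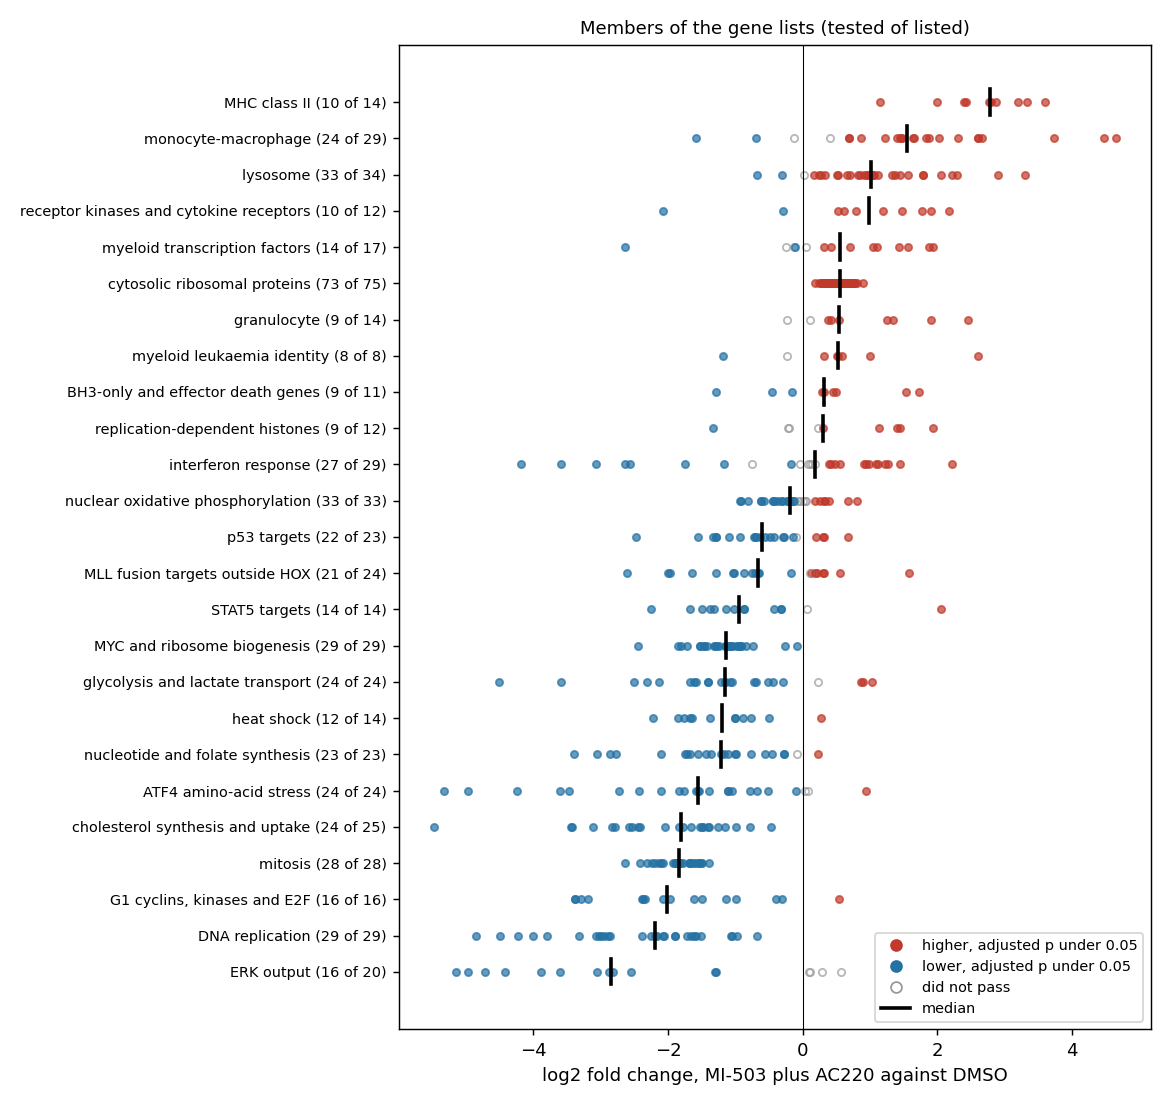
Each point is a tested gene of the list named on the vertical axis (tested of listed members in parentheses, lists of 8 or more tested), at its log2 fold change of the combination against DMSO; red and blue points passed the test upward and downward, open grey points did not pass, and black bars are medians. The median runs from -2.85 for ERK output to 2.78 for MHC class II, and the ribosomal proteins lie closest together.

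Metabolic genes fell in several pathways. All 24 tested genes of cholesterol synthesis and uptake fell, with a median of -1.81. DHCR7, which makes the final step to cholesterol (chr11:71427287-71449043), had 3905, 3567 and 4060.3 with DMSO and 102, 78.3 and 77.0 with the combination (log2 fold change -5.48 ± 0.21 (SE), limma adjusted p = 3.74e-17). HMGCS1, an early enzyme (chr5:43287470-43313412), went from 10098, 8422 and 9981 to 1071, 1099 and 1106, SQLE, squalene epoxidase, from 8455, 7459 and 8421 to 779, 741 and 711, and LSS, lanosterol synthase, from 7607, 7986 and 8116 to 814, 698 and 707. In these 4 genes the combination libraries lay far under every DMSO library. DHCR7 had 726, 692 and 808 with MI-503 and 37.4, 26.9 and 78.8 with AC220. The list's medians against DMSO were -1.34 for MI-503 alone and -2.04 for AC220 alone. Of the 24 genes, 22 were lower than with MI-503 and none higher, beside 33.6% and 34.9% of all genes, and against AC220 10 were higher and 4 lower, beside 27.4% and 28.1%.

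Genes of the ATF4 response, which supplies amino acids under stress, fell in 21 of 24 cases with a median of -1.55. PSAT1 (chr9:78297125-78330093) and PHGDH (chr1:119711934-119744215), enzymes of serine synthesis, went from 6654, 6858 and 6713 to 153, 166 and 181 and from 2724, 2847 and 3072 to 100.4, 85.5 and 88.2 (log2 fold change -5.33 ± 0.087 (SE), limma adjusted p = 1.16e-23 for PSAT1). ALDH1L2, of mitochondrial folate metabolism, went from 3099, 2994 and 2992 to 145, 187 and 148, and SLC7A5, a carrier of large amino acids, from 16235, 18814 and 17166 to 1483, 1463 and 1348. PSAT1 was under AC220 alone by 1.41 in log2 and under MI-503 alone by 3.45. SLC7A11, the cystine carrier (chr4:138164097-138242349), rose instead, with 1859, 1819 and 1562 in DMSO and 3112, 3443 and 3449 in the combination (log2 fold change 0.94 ± 0.066 (SE), limma adjusted p = 4.54e-12). With either drug alone it was below DMSO, at 1012, 1033 and 956 with MI-503 and 873, 761 and 877 with AC220, so every combination library lay above all 9 others. DDIT3 and SARS did not pass, at 0.033 and 0.083, and ATF4 itself differed by -0.095.

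Glycolysis and lactate transport fell in 20 of 24 cases and rose in 3, with a median of -1.15. ALDOC (chr17:28573120-28576895), an aldolase, went from 8676, 10754 and 10414 to 489, 422 and 399, ENO2, an enolase, from 949.7, 1096 and 1013 to 74.4, 82.4 and 96.4, and LDHA, which makes lactate, from 33219, 31456 and 34651 to 5563, 5972 and 5998 (log2 fold change -2.50 ± 0.042 (SE), limma adjusted p = 1.72e-23). SLC16A1, a lactate carrier, went from 2154, 1977 and 2129.8 to 406, 412 and 435. The hexokinases HK1 and HK2, which trap glucose in the cell, rose from 1914, 1913 and 1921 to 3766, 3577 and 3391 and from 4655, 4342 and 4452 to 8421, 8174 and 7982. PFKFB3, which makes an activator of phosphofructokinase, rose from 805, 979.6 and 830.4 to 1777, 1723 and 1803. All 3 were above both single drugs, HK2 by 0.54 over MI-503 and 0.59 over AC220. PFKM did not pass, at 0.22.

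Nuclear genes of oxidative phosphorylation changed little. Of 33, 21 fell, 7 rose and 5 did not pass (NDUFB10, NDUFV1, SDHB, SDHD and ATP5O), with a median of -0.18 and none past 2-fold. NDUFV2 and NDUFS1, subunits of complex I, fell by 0.93 and 0.92 in log2. NDUFB5, of the same complex, rose by 0.80 and UQCRB, of complex III, by 0.68.

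**Figure D4:**
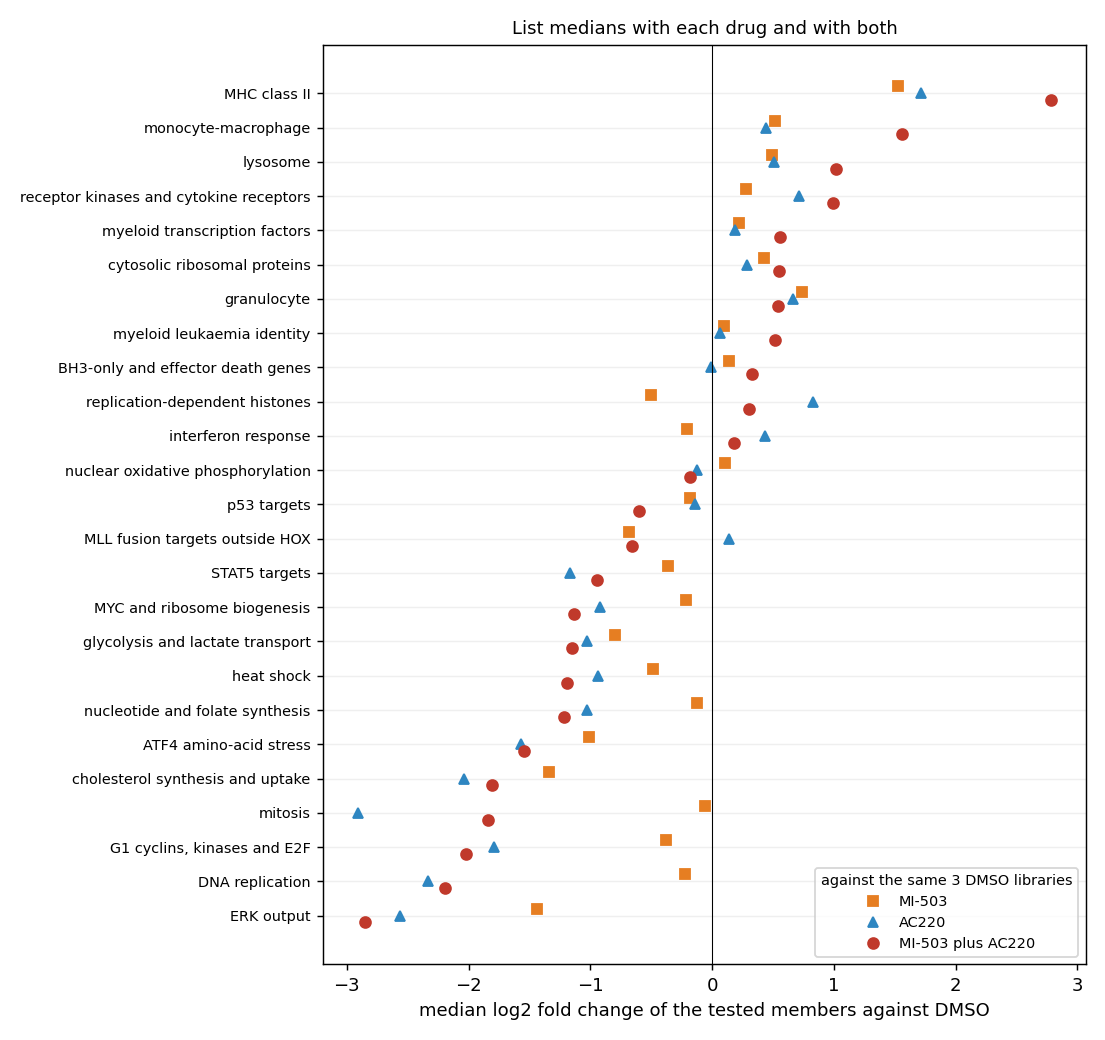
Each symbol is the median log2 fold change of a list's tested genes (vertical axis) against the same 3 DMSO libraries, as an orange square for MI-503, a blue triangle for AC220 and a red circle for the combination. For mitosis the medians are -0.059, -2.91 and -1.84, and for MHC class II 1.53, 1.71 and 2.78.

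Genes of mature monocytes and macrophages rose. Of 29, 24 were tested, 20 rose and 2 fell, with a median of 1.56, and 17 rose by at least 2-fold. LYZ, lysozyme (chr12:69348381-69354234), had 31405, 29057 and 29629 with DMSO and 181590.1, 182142 and 183689.6 with the combination (log2 fold change 2.60 ± 0.043 (SE), limma adjusted p = 1.37e-23). F13A1, a transglutaminase of monocytes (chr6:6144084-6320662), had 339.7, 338 and 370.3 and 4509, 4720.4 and 4745 (log2 fold change 3.73 ± 0.048 (SE), limma adjusted p = 1.35e-25), a 13.3-fold higher mean. SIGLEC1, a sialic acid receptor of macrophages (chr20:3686970-3712600), went from 27.6, 16.1 and 21.5 to 599, 537 and 547. The libraries of these 3 genes were apart by more than 5-fold. TLR8, a sensor of RNA, went from 10.5, 13.1 and 13.7 to 266, 297 and 329, and S100A8, a calcium-binding protein of myeloid cells, from 81.8, 85.3 and 82.1 to 554, 548 and 497. CD14, the monocyte marker, stayed low but rose, from 7.61, 9.03 and 9.77 to 27.1, 28.5 and 22.6 (limma adjusted p = 0.00161). Its DMSO values all lay under the limit of 10, so CD14 entered the table through treated libraries only. FCGR1A, an Fc receptor with near-identical copies, fell from 772, 819 and 897 to 253, 315 and 263, and the complement receptor C5AR1 fell by 0.69 (limma adjusted p = 0.024, a call lost without some libraries). ITGAM and MSR1 did not pass, at -0.13 and 0.41. CD163, MRC1, FCGR3A, FCN1 and VCAN had at most 6 reads in either group.

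Single drugs differed among these genes. LYZ had 168981, 180664 and 179309 with MI-503 and 53388, 55297 and 59930.5 with AC220, so that the combination did not pass against MI-503 (difference 0.05, limma adjusted p = 0.313) and was 1.70 above AC220. F13A1 and S100A8 stood near MI-503 in size, with differences of 0.12 and 0.17 in log2 whose test results are not given here. SIGLEC1 and TLR8 were above both, TLR8 by 2.30 over MI-503 and 2.62 over AC220. Over the list, 16 were higher and 2 lower than with MI-503, and 22 higher and 1 lower than with AC220. CYBB, the catalytic subunit of the phagocyte oxidase, had 396, 469.7 and 488 in DMSO, 2201, 2211 and 2277 in the combination, 2554, 2778 and 2524 under MI-503 and 210.2, 134 and 114 under AC220. Its AC220 libraries were the lowest of the 4 groups, and the combination exceeded them by 3.91 in log2 (limma adjusted p = 2.83e-17).

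Granulocyte genes rose in 7 of 9 tested of 14, with a median of 0.54 (0.89 over genes reaching a value of 50). ELANE and AZU1, proteins of primary granules, went from 2345, 2480.2 and 2179 to 6889, 5511 and 5367 and from 7239, 7676 and 6570.2 to 19399, 15663 and 16131. CAMP, an antimicrobial peptide, went from 15.2, 9.03 and 14.7 to 80.1, 75.3 and 66.7. MPO, myeloperoxidase, had 166, 171 and 172 against 138, 136 and 160.1 and did not pass (limma adjusted p = 0.0554), although the combination libraries were all lower. MMP9 did not pass either, and LTF, LCN2, CEACAM8, MMP8 and FCGR3B lay under the limit.

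Stem and progenitor genes were mostly too low to test, 5 of 15 passing the limit. GATA2, a transcription factor of stem cells and mast cells (chr3:128479422-128493201), fell from 471, 421 and 531 to 12.4, 17.3 and 20.5 (log2 fold change -4.76 ± 0.21 (SE), limma adjusted p = 6.52e-16). It had 79.2, 64.3 and 66.2 with MI-503 and 31.7, 16.9 and 34.7 with AC220. ERG fell from 6.66, 10.04 and 6.84 to 2.26, 3.05 and 4.10, few reads and a call lost in several settings, and SOX4 fell by 0.34. KIT and MSI2, an RNA-binding protein of progenitors, rose, MSI2 from 486, 505 and 431 to 916, 867 and 905. CD34 had 5 reads over the DMSO libraries and 0 over the combination libraries.

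Transcription factors of the myeloid lineages rose in 9 of 14 tested. KLF4, a factor of monocytes (chr9:107484852-107489769), went from 128, 103 and 116 to 449, 437 and 446 (log2 fold change 1.93 ± 0.09 (SE), limma adjusted p = 1.45e-15). TFEB and TFEC, relatives of MITF that bind lysosomal genes, went from 353, 414 and 347 to 1185, 1055 and 1040.3 and from 1081, 1007 and 949.6 to 2545, 2743 and 2908. KLF2 fell from 24.7, 15.1 and 18.6 to 4.51, 1.02 and 2.05 and IRF8, a factor of monocytes and dendritic cells, by 0.12. CEBPD, IRF4 and GFI1 did not pass, at -0.25, -0.12 and 0.054.

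Some genes that mark other blood lineages were tested too, and they moved in both directions. NKG7, of cytotoxic granules, rose from 883, 876 and 907 to 2539, 2279 and 2251. CLEC10A, a lectin of dendritic cells and macrophages, rose from 194, 201 and 194 to 764, 725 and 719, whereas BATF3, a factor of dendritic cells, fell from 103, 117 and 120.2 to 6.77, 6.10 and 2.05. The integrin gene ITGA2B, of megakaryocytes, fell from 825, 824 and 904 to 302, 234 and 219.6 and the eosinophil granule gene PRG2 from 1350.4, 1029 and 1338 to 406, 470 and 413. The summed level of the erythroid and megakaryocyte list was 1409 to 1552 with DMSO and 759 to 914 with the combination, 1 of 5 tested rising and 3 falling. For the T and NK list it was 887 to 915 and 2263 to 2551, with NKG7 the only member tested, and for the B cell list 170.0 to 186 and 93.6 to 119.5, with 2 of 5 falling. The mast cell, basophil and eosinophil list had 1115 to 1456 and 505 to 590.0, with 1 of 4 rising (EPX) and 1 falling. The dendritic cell list had 511 to 537 and 828 to 897, with 2 of 4 rising (CLEC10A and LILRA4) and 2 falling (BATF3 and FCER1A). In the epithelial and fibroblast list KRT8 rose by 0.53 and PDGFRB fell by 0.97 among 3 tested of 10.

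Lysosomal genes rose in 30 of 33 tested, with a median of 1.02, and 17 by at least 2-fold. SGSH, which degrades heparan sulfate (chr17:80200673-80220333), had 183, 191 and 162 with DMSO and 1906, 1796 and 1630.2 with the combination (log2 fold change 3.31 ± 0.08 (SE), limma adjusted p = 7.42e-21). ASAH1, acid ceramidase, had 2240.2, 2053 and 1941 and 14832, 15649 and 15905 (log2 fold change 2.90 ± 0.046 (SE), limma adjusted p = 8.96e-24). PSAP, the precursor of sphingolipid activators (chr10:71816298-71851251), had 7156, 7139 and 7626 and 34962, 34178 and 32548, and CTSL, a cathepsin, 31.4, 34.1 and 31.3 and 182, 142 and 162. In all 4 the lowest combination library was more than 4-fold above the highest DMSO library. SGSH had 456, 398 and 462 with MI-503 and 485, 432 and 459 with AC220, and PSAP 18666, 18214 and 18509 and 16203, 16047 and 15509. For both genes either drug alone gave values between DMSO and the combination. The list's medians were 0.49 with MI-503 and 0.51 with AC220, and 26 of 33 were higher and 6 lower than with MI-503, 25 higher and 4 lower than with AC220. LIPA, a lysosomal lipase, fell by 0.68 in log2, and GLA did not pass, at 0.027.

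MHC class II genes, whose products present antigen to T cells, rose in the 10 tested of 14, by 1.14 to 3.59 in log2 with a median of 2.78. CIITA, the master regulator of these genes (2.77 in log2), had 346, 347 and 307 with DMSO and 2424, 2207 and 2224 with the combination. HLA-DRA (chr6:32439887-32445046) went from 154, 208 and 186 to 1366, 1317 and 1328 (log2 fold change 2.88 ± 0.082 (SE), limma adjusted p = 1.74e-19), and HLA-DQA1, whose promoter is printed above, from 11.4, 20.1 and 17.6 to 193, 213 and 206. CD74, the invariant chain, rose by 2.000 and RFX5, a promoter-binding subunit, by 1.14. HLA-DPA1 and HLA-DPB1 had 6 and 7 reads over the DMSO libraries and 75 and 92 over the combination libraries, the former a ratio of 13.5 with a 95% counting interval of 5.92 to 37.9, and they passed the limit through the treated libraries only. HLA-DRA had 645, 622 and 598 with MI-503 and 765, 738 and 667 with AC220, both between DMSO and the combination. All 10 genes were higher than with MI-503, and 9 higher than with AC220. HLA-DMA, HLA-DMB, HLA-DOA and HLA-DOB lay under the limit with 0 to 7 reads in either group. The region on chromosome 6 that holds the HLA genes also holds RPS18, NEU1, HSPA1A and HSPA1B, which had 0 to 2 reads per group, and HLA genes have many near-identical copies and haplotypes, so their levels in this table are uncertain.

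The interferon response list was split. Of 27 tested, 13 rose, 8 fell and 6 did not pass, with a median of 0.18. Over all genes 39.3% rose and 40.1% fell, so a split of this kind is not particular to the list. Over genes reaching a value of 50 in place of 10, 12 rose and 4 fell, with a median of 0.42. The IFIT genes, antiviral RNA-binding proteins clustered on chromosome 10, fell together: IFIT2 went from 457, 294 and 394 to 27.1, 17.3 and 16.4 (log2 fold change -4.18 ± 0.21 (SE), limma adjusted p = 8.95e-15), IFIT3 from 231, 152 and 192 to 35.0, 28.5 and 25.6, and IFIT1 from 77.1, 46.2 and 47.9 to 4.51, 5.09 and 2.05. IFIT5 had 39 reads over DMSO and 2 over the combination. The RNA sensors IFIH1 (MDA5) and DDX58 (RIG-I) rose from 151, 159 and 163 to 431, 409 and 449 and from 239.8, 214 and 239 to 508, 559 and 553. RSAD2 (viperin, chr2:6865885-6898239) rose from 87.5, 73.3 and 58.6 to 347, 342 and 332 and STAT2, a transcription factor of the pathway, from 3151, 3343 and 3034 to 7876, 7543 and 7417. STAT2 and DDX58 did not pass against AC220 alone, with differences of -0.013 and -0.0042. IFIT2 had 9.02, 13.6 and 11.7 with MI-503 and 30.7, 27.9 and 33.8 with AC220, low with either drug.

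Apoptosis regulators changed gene by gene. Of the 6 survival members of the BCL2 family, 3 fell: BCL2, described above, MCL1 from 9733, 9109.6 and 9011 to 5552, 5787 and 5889 (log2 fold change -0.69 ± 0.045 (SE), limma adjusted p = 1.03e-12), and BCL2A1 from 40.0, 31.1 and 38.1 to 0, 2.03 and 0, a ratio of 51.9 with a 95% counting interval of 14.0 to 434. BCL2L2 (BCL-W) rose from 612, 603 and 657 to 1077, 1116 and 1040.3. BCL2L1 and BCL2L10 did not pass, at 0.063 and -0.19. BCL2 was lower with the combination than with either drug, whereas MCL1 did not pass against MI-503 or AC220 (limma adjusted p = 0.0828 and 0.9). Of 9 tested BH3-only and effector genes, which promote apoptosis, 6 rose and 3 fell. BMF (chr15:40087890-40108879) went from 3231, 3920.5 and 3327 to 10484, 10139 and 9636 (log2 fold change 1.53 ± 0.054 (SE), limma adjusted p = 8.24e-18) and BIK from 94.2, 82.3 and 99.7 to 318, 293 and 307. BCL2L11 (BIM) rose by 0.29 in log2 and was above both single drugs, by 0.41 and 0.30. BBC3 (PUMA) rose by 0.49, BAK1 by 0.44 and BAD by 0.32. PMAIP1 (NOXA) fell from 705, 531 and 518 to 217, 237 and 254, and BID and BAX fell by 0.46 and 0.16.

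Targets of p53 fell in 17 of 22 cases and rose in 4, with a median of -0.60. FAS, a death receptor (chr10:88964050-89017059), went from 96.1, 104 and 106 to 20.3, 16.3 and 16.4 (log2 fold change -2.47 ± 0.18 (SE), limma adjusted p = 6.01e-12). TRIAP1 went from 1567, 1475 and 1605 to 564, 645 and 631, PLK3 from 416, 432 and 403 to 194, 164 and 155 and MDM2, the ubiquitin ligase of p53, from 7838, 7213 and 7175 to 2894, 3057 and 3201. TP53I3 rose from 97.1, 100.4 and 101 to 173, 157 and 147, and TP53INP1, XPC and ZMAT3 by 0.32, 0.30 and 0.20. CCNG1 did not pass, at -0.11. Against AC220 alone 19 of 22 were lower and none higher, and against MI-503 alone 14 were lower and 4 higher.

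Histone genes of the replication-dependent class can be seen in poly(A) RNA only where their transcripts are polyadenylated. Of 9 tested, 5 rose and 1 fell. HIST2H2BE went from 128, 136 and 125 to 491, 486 and 526, HIST1H2BK from 351, 423 and 384 to 841, 819 and 864 and HIST1H2AC from 119.9, 149 and 104 to 347, 307 and 327. HIST2H2AC fell from 26.6, 21.1 and 12.7 to 7.89, 7.12 and 6.16. HIST2H2BE had 562, 476 and 535 with AC220 alone and its combination level did not pass against it (difference -0.063, limma adjusted p = 0.544).

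Across all genes, the combination differed from MI-503 alone in 9885 of 14421 (5039 higher, 4846 lower) and from AC220 alone in 8007 (3954 higher, 4053 lower), by the same fit. The largest rises over MI-503 were in LILRA6, LILRB3, NRP2 and IGSF22. LILRB3, an inhibitory receptor of myeloid cells (chr19:54216278-54223007), had 390.2, 360.1 and 326 under both drugs, 25.1, 20.5 and 31.2 under MI-503 and 73.9, 77.6 and 109 under AC220, and LILRA6 shares much of its sequence, so reads of the pair may be divided arbitrarily. NRP2, a semaphorin receptor, had 6.01, 5.85 and 7.79 with MI-503 and 86.8, 103 and 111 with both. For the 3 genes the MI-503 libraries were about as low as DMSO and the combination libraries were above AC220 as well. The largest falls from MI-503 were in the replication genes MCM10 and CDC45, in HELLS, and in IGFBP2, a binder of insulin-like growth factors, which had 1526, 1417 and 1507 with MI-503 and 121, 105 and 97.5 with both.

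Relative to AC220 alone, the largest rises were in GUCY1A2, OLR1, CYBB and PID1. OLR1, a receptor of oxidised lipoprotein (chr12:10158301-10176266), had 34.3, 27.1 and 28.3 in DMSO, 105, 118 and 96.4 under MI-503, 13.4, 10.9 and 15.9 under AC220 and 255, 250.3 and 229 under both (difference from AC220 4.10, limma adjusted p = 6.86e-16). PID1, an adaptor protein, had 21.1, 18.9 and 19.7 with AC220 and 273, 222 and 267 with both. In OLR1 the combination libraries were above those of all 3 other groups, of which being apart from AC220 was a condition of the choice. The largest falls from AC220 were in CSMD3, LOC101927497, PAM and F3. CSMD3, a large membrane protein, had 1105, 1099 and 1071 with AC220, 53.1, 50.7 and 58.4 with MI-503 and 35.0, 31.5 and 52.3 with both, beside 735, 653 and 628 with DMSO. F3, tissue factor, which starts blood coagulation (chr1:94529173-94541759), had 757, 733 and 745 in DMSO, 64.2, 70.2 and 71.1 under MI-503, 213, 205 and 216 under AC220 and 33.8, 21.4 and 16.4 under both. F3 was thus lowest with both drugs, 1.54 under MI-503 (limma adjusted p = 8.31e-09) and 3.15 under AC220 (limma adjusted p = 6.32e-14). PAM, which amidates peptides, had 219.8, 186 and 196 with AC220 and 12.4, 17.3 and 17.4 with both.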

How the data were processed

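Poly(A) RNA of MV411 cells was sequenced as paired 50 bp reads, per the labels' protocols, in 4 groups of 3 libraries. The authors deposited 1 table of normalised signal for these libraries, made with DESeq version 2 on genome hg38, per the submitters' processing notes. The aligner, the counting program and the annotation are not given in the sources used here. Spike-in reads and the tables of the other 2 cell lines were not analysed here. No per-sample column was left without a sample (0).

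In each library 100% of values were whole reads divided by 1 factor, within 0.001, and these factors equalled median-of-ratios factors. Libraries of one group were not sequencing duplicates: over 12 pairs, the chi-square divided by its degrees of freedom was 2.45 to 9.41. The highest value, 9.41, was that of combination libraries 1 and 3. Libraries 1 and 2 of that group gave 4.99, and libraries 2 and 3 gave 2.55. The test was limma 3.58.1 (R 4.3.3) on log2(value + 1) with a variance trend, two-sided, over genes reaching a value of 10 in 3 or more libraries, with all 12 libraries in 1 fit and Benjamini-Hochberg adjustment at 0.05. On recovered reads edgeR 4.0.16 called 11458 genes against DMSO, 9902 against MI-503 and 8039 against AC220, and DESeq2 1.42.0 called 11048, 9448 and 7427. On simulated data of 14421 genes the fit of the combination against DMSO recovered 88.5%, 94.5% and 99% of genes changed by 1.5, 2 and 4-fold. Of the calls 5.85%, 5.03% and 3.88% were false. How many genes were changed in the simulation is not given here, and 11450 were called in the data. These rates therefore need not hold for those calls.

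The genes named are 30 chosen for the pathways of both drugs, up to 4 passing members per direction of each of 35 lists, the 12 largest changes per direction against DMSO and the 4 largest against each drug (groups apart, a group mean of at least 100), and members that did not pass where a list had few. CIITA, CD74, RFX5 and MDM2, and members given only by their log2 value, were added after their values were seen. Some members chosen by this rule are not reported here. The comparison, lists and genes were chosen with earlier results of these data known, so a list's count is a description. Ratios with few reads carry 95% exact intervals, and these and the floor of 3 reads cover counting error only. Alternatives were other factors, pseudocounts, filters, tools, a replicate block and leaving out each library.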

Additional observations from a re-analysis of the deposited data

How the results depend on the processing

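No call count against DMSO moved by 1.5 times under any alternative. It was 11450, 10257 to 12150 under other tools, factors, pseudocounts (0.5 and 8), filters (a minimum of 50, or none), no variance trend and a fit of only the 2 groups, and 10987 to 11217 without 1 of the 6 libraries. Against MI-503 these ranges were 9127 to 10041 and 9292 to 9653 (reported 9885), and against AC220 7427 to 8208 and 7228 to 7869 (reported 8007). With the replicate block 11446, 9920 and 8008 genes were called. No pairing of libraries by number was seen, though so few libraries cannot show that there was none. Correlations were taken on deviations from each gene's group mean, not on the levels themselves. For same-numbered DMSO and combination libraries they were -0.041, -0.016 and -0.042. Among libraries of other groups, 3 of 12 libraries correlated best with their own number. Among the named genes, 23 results lost their call under an alternative (NPM1, ERG, C5AR1, CD79B and EPOR) and 3 gained one (MPO and ITGAM). None reversed. With a minimum of 50, 4 in place of 8 interferon genes fell and 9 in place of 12 ERK genes, since fewer genes were tested, and the medians of 10 lists moved, of which stem and progenitor genes (-0.34 to 0.29) and dendritic cell markers (0.075 to -1.003) changed sign. With a pseudocount of 8 the medians of the ERK and MHC class II lists were -2.51 and 2.35. With equal library totals and TMM factors the median of all genes was -0.020 and 0.0053 in log2, beside 0.0031 as reported, and 48.0% and 49.7% of calls were higher. Genes with few reads are limited by depth, and groups of 3 libraries were too small for an outlier test.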
